A study of Homo sapiens with 3 samples.

Results

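The endoplasmic reticulum is where secreted and membrane proteins are threaded through the translocon, folded with the help of chaperones and oxidoreductases, and, when folding fails, pulled back out and degraded. Misfolded protein in its lumen is sensed by IRE1 (ERN1), PERK (EIF2AK3) and ATF6. The transcription factors XBP1, ATF4 and ATF6 then raise the transcription of chaperones and degradation genes, and this is called the unfolded protein response. Luminal breast cancer cells make much secreted protein, and XBP1 is a transcript for which estrogen receptor-positive tumors are known.

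Here 36 genes of endoplasmic reticulum folding and the unfolded protein response were followed, of 22499 rows with a gene symbol in the count tables. They were chosen by symbol and fall into 4 sensors and transcription factors, 8 genes of the Hsp70 and Hsp90 folding machinery, 7 lectin chaperones and disulfide isomerases, 8 genes of endoplasmic reticulum-associated degradation and 9 genes of the translocon, the translocon-associated TRAP complex and signal peptidase. All 36 symbols were found in the tables.

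The cells were CAMA-1, an established estrogen receptor-positive breast cancer line. Sensitive cells were of the parental lineage and were marked with mVenus, a yellow fluorescent protein. Resistant cells had been kept for months in ribociclib, an inhibitor of the cell cycle kinases CDK4 and CDK6, until they tolerated it, and were marked with the red protein mCherry. Spheroids were plated with 2000 cells that were 100% sensitive, 50% of each lineage, or 100% resistant, and all of them were exposed to 1 µM ribociclib for 11 days, in DMSO by the labels, so that no untreated cells were part of the comparison. RNA of single cells was counted by unique molecular identifier (UMI) in 1 library per spheroid composition.

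The deposited annotation placed 3329 cells in sensitive monoculture, 2059 sensitive and 6292 resistant cells in coculture, and 7557 cells in resistant monoculture. Values for these 4 populations are given in this order throughout, as UMIs of a gene per 1000000 UMIs summed over the cells of a population (CPM). With 1 library per composition there is no replicate, no test was run, and all intervals (95%, exact Poisson) and standard errors cover counting error only. Both coculture populations came from 1 library, so that coculture and library cannot be told apart. Cells annotated as G1 numbered 2963, 1138, 3125 and 3781, and since the populations differ in the share of cycling cells, G1 cells are described first. A ratio is the log2 of (CPM + 1) over (CPM + 1). A gene was taken as past the fold where this ratio was 0.32 or more away from 0, and only genes whose CPM averaged 10 or more over the 2 populations were tested for it.

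The summed UMIs were 70896822 to 270891547 per population. Median UMIs per G1 cell were 26713, 31964, 28687 and 33368, and the median mitochondrial share of UMIs in G1 cells was 21.2%, 19.2%, 16.2% and 16.7%. The luminal markers GATA3, KRT8, KRT18, KRT19 and EPCAM were between 205 and 3671 CPM and ESR1 between 14.2 and 20.2 CPM in all 4 populations. Of the markers of other cells, PTPRC, CD3E and DCN had 0 to 3 UMIs per population, VWF was at most 0.291 CPM and COL1A1 at most 3.61 CPM. COL3A1 differed, with 35.2, 18.7, 2.12 and 0.181 CPM, and its part in the results was not tested. Sensitive coculture cells were taken up only where an mVenus UMI was seen, and in coculture barcodes with 2 or more mVenus UMIs the mCherry level was 7.57% of that of resistant monoculture cells and 4.88% of that of resistant coculture cells, which had been selected for an mCherry UMI. These shares are estimates of the resistant-cell RNA mixed into those barcodes. Those barcodes numbered 1263 and included ones with mCherry UMIs, whereas the annotated sensitive coculture cells held 0 mCherry UMIs. The shares may therefore not hold for the annotated cells, to which the correction below was applied. That correction used the profile of resistant monoculture cells, which came from another library. The 3 libraries shared 34 to 60 barcode sequences by pair.

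The promoters of several of these genes hold short elements known for the unfolded protein response. The endoplasmic reticulum stress element, ERSE, was searched as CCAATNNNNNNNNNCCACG, its second form, ERSE-II, as ATTGGNCCACG, and the unfolded protein response element, UPRE, as TGACGTGG, on both strands of the 250 bases before and 50 bases after each start in a RefSeq table (GRCh38.p14). Of the 36 genes, 32 had a promoter there, with 42 promoters in all. An exact ERSE stood in 9 of these promoters, which belonged to 7 genes (CALR, CANX, CRELD2, HSP90B1, HSPA5, PDIA6 and XBP1), or 21.9% of the 32, against 0.066% of the 27273 other genes in the table. An ERSE-II stood in 3 genes (HERPUD1, HYOU1 and SDF2L1), or 9.38%, against 0.0587% of the other genes, and a UPRE in 3 (HYOU1, SSR3 and SSR4), or 9.38%, against 0.917%. Over all 35116 promoters of the table, the members' included, the shares were 0.0769%, 0.0541% and 0.729%. The only overlap among these matches was between a UPRE and an ERSE-II of HYOU1. The genes were chosen as members of this response and the elements are known for it, so the higher shares were to be foreseen. A match is a description of the letters and does not show a bound site.

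Shown are 6 of these elements, all of genes whose levels are described below. Further elements of such genes are not shown. Capitals mark the fixed letters of the element, in the reading direction of the gene, and an element on the other strand appears as its reverse complement. All 6 were found once and without mismatch in GRCh37, the build of the counts. Those of HSP90B1, PDIA6 and CRELD2 lie inside the GENCODE positions of their genes, which begin further upstream than the RefSeq starts used.
HSPA5, ERSE, chr9:128003665-128003693, minus strand: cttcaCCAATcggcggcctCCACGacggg
HSP90B1, ERSE, chr12:104323989-104324017, plus strand: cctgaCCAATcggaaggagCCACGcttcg
PDIA6, ERSE, chr2:10952974-10953002, minus strand: ccggaCCAATgagccgcagCCACGgcttg
CRELD2, ERSE, chr22:50312197-50312225, plus strand: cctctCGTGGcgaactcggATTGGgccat
HERPUD1, ERSE-II, chr16:56965928-56965956, plus strand: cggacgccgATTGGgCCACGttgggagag
SDF2L1, ERSE-II, chr22:21996394-21996422, plus strand: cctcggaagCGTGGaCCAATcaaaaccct

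Together the 36 genes made up 6445, 6259, 6997 and 7133 CPM in G1 cells. The resistant populations thus lay above the sensitive ones, and within each lineage coculture lay slightly below monoculture. Single genes past the fold between populations are given below, beside the shares of all genes tested. The widest difference in the plot of levels was that of HERPUD1 in cocultured sensitive cells.

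**Figure D1:**
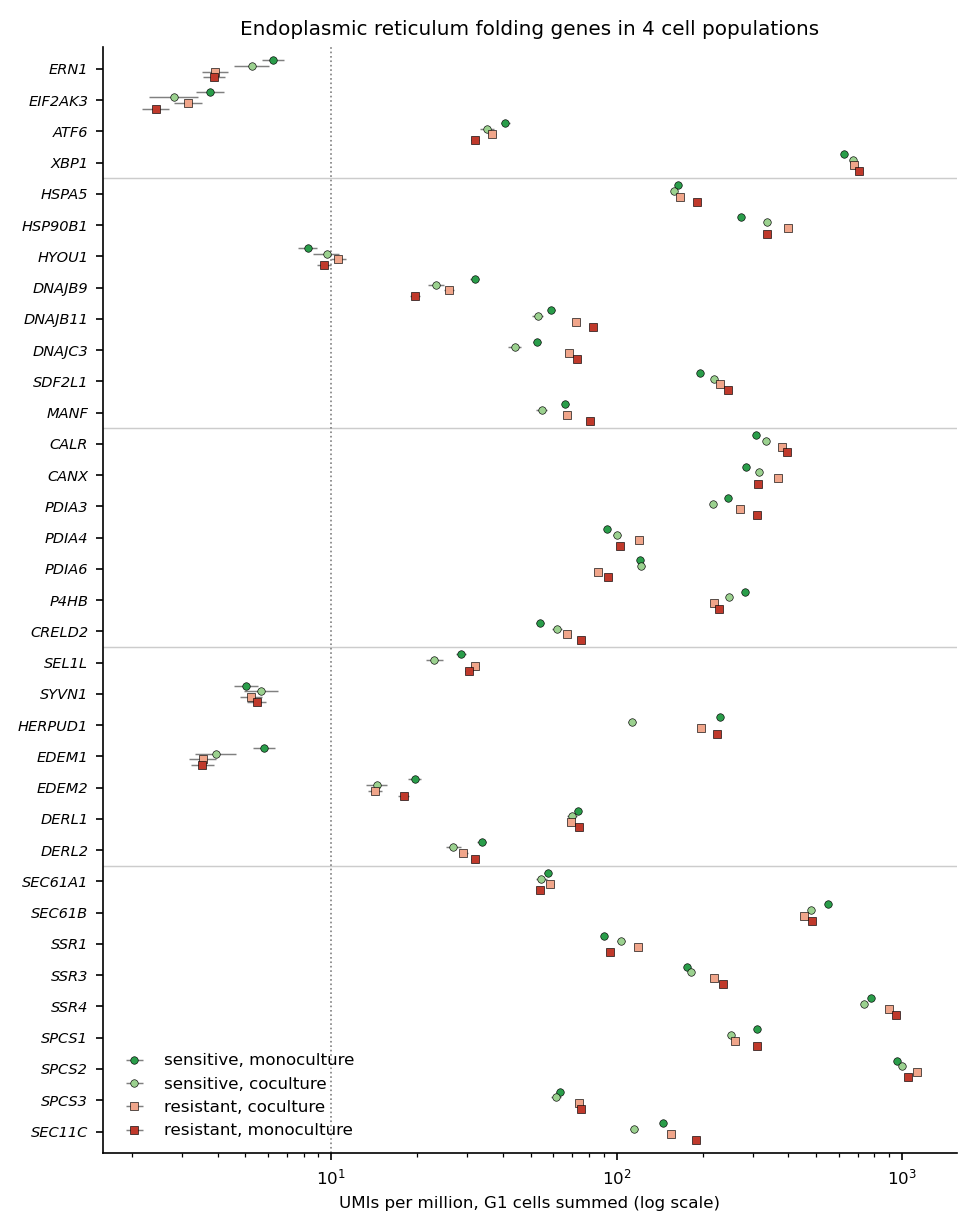
Level of each gene in G1 cells, in CPM on a log axis, with 95% Poisson intervals (counting error only), for sensitive (circles) and resistant (squares) cells in monoculture (dark) and coculture (light); horizontal lines separate the roles and the dotted line marks 10 CPM. HERPUD1 in cocultured sensitive cells, at 113, lies apart from the other populations at 198 to 230, and DERL3, at 0 to 5 UMIs per population, is left out.

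The first question was whether growing beside resistant cells went with a different level of these genes in sensitive cells. In G1 cells 0 of 30 genes tested were past the fold upward and 4 downward, where 8.87% of all 6787 genes tested were past it upward and 19.4% downward. The 4 were HERPUD1, DNAJB9, EDEM2 and SEC11C. The median log2 ratio over the genes was -0.07, beside -0.08 over all genes tested. In all cells, 0 genes were past it upward and 7 downward (all genes, 12.8% and 19.5%), with DERL2, SEL1L and SPCS1 joining the 4. In G1 cells both counts were below the background shares and the medians lay close together, while in all cells 7 of 30 was slightly above the background share. In cells with under 15% of their UMIs from mitochondrial genes the medians lay further apart, at -0.21 beside -0.08 over all genes, and HSPA5 was at -0.31.

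HERPUD1 (chr16:56966054-56978776, plus strand) encodes a membrane protein of the degradation complex. In G1 cells it was at 230 CPM (interval 227 to 233) in sensitive monoculture, 113 (110 to 117) in sensitive coculture, 198 (195 to 201) in resistant coculture and 224 (221 to 227) in resistant monoculture. Thus the cocultured sensitive cells were the low population, the other 3 lay close together, and no intervals with the cocultured sensitive cells overlapped. The log2 ratio of sensitive cells in coculture over monoculture was -1.01 (counting SE 0.024) in G1 cells and -1.12 in all cells. For resistant cells it was -0.18 in G1 cells, and for resistant over sensitive cells within the coculture library 0.80 (SE 0.025). Between the monocultures it was -0.04.

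The low level also showed in the share of G1 cells that held a HERPUD1 UMI, a share that draws on the same UMIs as the CPM. With every cell thinned to 5000 UMIs, for which no G1 cell was too shallow, 62.5% of sensitive monoculture G1 cells, 40.9% of sensitive coculture, 59.1% of resistant coculture and 61.6% of resistant monoculture G1 cells held a HERPUD1 UMI. The same share without thinning was 97.3%, 90.1%, 97.2% and 98.1%. These cultures hold no cell type that lacks HERPUD1, so a share from free RNA alone was not at hand. HSPA5, with 51.0%, 50.2%, 53.7% and 58.5% of thinned cells, did not separate the cocultured sensitive cells.

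**Figure D2:**
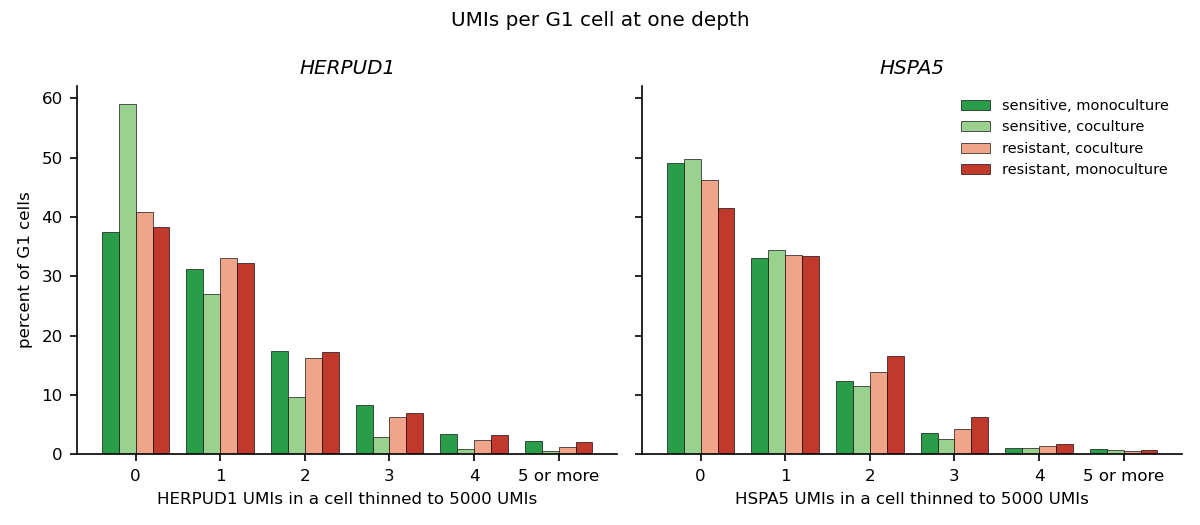
Share of G1 cells (percent) by the number of HERPUD1 (left) and HSPA5 (right) UMIs in a cell thinned to 5000 UMIs, for the 4 populations. Cells without a HERPUD1 UMI were 59.1% in sensitive coculture and 37.5% to 40.9% in the other populations, while for HSPA5 they were 41.5% to 49.8%.

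The deposited clusters held different parts of the sensitive lineage, and clusters 3 and 7 held most cells of sensitive coculture (1087 and 617), whereas cluster 4 held most of sensitive monoculture (1945). Within cluster 3, HERPUD1 was at 148 CPM in monocultured and 93.4 CPM in cocultured sensitive cells, and within cluster 7 at 120 and 77.8 CPM. Within cluster 4 the 84 cocultured cells were at 188 CPM and the monocultured ones at 219 CPM. The log2 ratios within clusters 3, 7 and 4 were -0.66 (SE 0.047), -0.61 (SE 0.056) and -0.22 (SE 0.068). HERPUD1 was thus lower in coculture within each of these clusters, by less than over all cells and, in cluster 4, by less than the fold. In sensitive monoculture HERPUD1 was at 253 CPM in cluster 8 and at 394 CPM in cluster 12, neither of which held 50 or more cocultured sensitive cells.

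DNAJB9 (ERdj4, chr7:108210311-108215294, plus strand), a J-domain cochaperone of HSPA5, was past the fold in opposite directions in the lineages. In G1 cells it was at 31.8 CPM (interval 30.6 to 33.1), 23.3 (21.7 to 24.9), 25.9 (24.9 to 27.0) and 19.6 (18.9 to 20.4). The monocultures were the extremes and the cocultured cells of either lineage lay between them. The log2 ratio was -0.44 (SE 0.055) for coculture over monoculture in sensitive cells and 0.38 (SE 0.039) in resistant cells, and the difference between these ratios was not tested. After 7.57% of the resistant monoculture profile was taken off the sensitive coculture profile, the DNAJB9 ratio was -0.49 in all cells, beside -0.51 uncorrected. In G1 cells DNAJB9 was lower in resistant monoculture than in sensitive coculture, but higher in resistant coculture. No correction was made with the resistant coculture profile. Within clusters the direction in sensitive cells did not hold throughout. The log2 ratio was 0.11 (SE 0.12) in cluster 3 and 0.21 (SE 0.15) in cluster 4, both with 95% counting intervals that hold 0, and -0.32 (SE 0.12) in cluster 7. The level in these clusters was 18.1, 31.1 and 24.0 CPM in monoculture and 19.6, 36.2 and 19.0 CPM in coculture. The ratios within clusters were taken after the data were seen.

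The other tested degradation genes were lower or alike in cocultured sensitive cells. EDEM2, which trims mannose from misfolded glycoproteins, was at 19.6, 14.4, 14.2 and 17.9 CPM in G1 cells, so that both cocultured populations were below both monocultures. SEL1L, the adaptor of the SYVN1 ubiquitin ligase, was at 28.6, 23.0, 31.9 and 30.4 CPM, lowest again in sensitive coculture. DERL2, a channel-like protein of the same complex, was at 33.7, 26.8, 29.0 and 31.8 CPM, with a log2 ratio of -0.32 in sensitive cells, at the edge of the fold. DERL1 varied only between 69.2 and 73.9 CPM. SYVN1 (5.03 to 5.67 CPM) and EDEM1 (3.54 to 5.81 CPM) were too low to be counted, and DERL3 had 0, 0, 1 and 5 UMIs in G1 cells, at most 0.0389 CPM. The median over the 5 tested degradation genes was -0.32 in sensitive cells and -0.13 in resistant cells, as log2 ratios.

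The HSP70 of the lumen and its partners showed no common change in cocultured sensitive cells. HSPA5 (BiP, chr9:127997132-128003661, minus strand), the main chaperone and the usual readout of the response, was at 165, 159, 167 and 192 CPM in G1 cells, a log2 ratio of -0.05 (SE 0.022) in sensitive and -0.20 (SE 0.015) in resistant cells. HSP90B1 (GRP94, chr12:104323885-104347709, plus strand), the luminal HSP90, was at 274, 338, 398 and 336 CPM. It was thus higher in coculture in both lineages, by 0.30 (SE 0.016) and 0.25 (SE 0.010), both under the fold. SDF2L1, a cofactor of HSPA5 and J-proteins, was at 195, 220, 230 and 246 CPM. MANF, a secreted luminal protein that binds HSPA5, was at 66.1, 54.7, 67.0 and 80.6 CPM, lower in coculture in both lineages. HYOU1, a large relative of HSP70 that works on HSPA5, was at 8.27, 9.63, 10.6 and 9.41 CPM, and in G1 cells it reached the level tested only within the coculture library.

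Among lectin chaperones and disulfide isomerases 0 of 7 were past the fold in cocultured sensitive cells, where 8.87% of all genes were upward and 19.4% downward. CALR, the soluble lectin chaperone, was at 309, 334, 381 and 395 CPM, and CANX, its membrane-bound relative, at 283, 315, 369 and 313 CPM. PDIA3, the isomerase that works with both, was at 246, 218, 271 and 310 CPM. PDIA4 was at 92.8, 100, 120 and 103 CPM, and P4HB, the classical protein disulfide isomerase, at 282, 248, 220 and 228 CPM.

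Of the genes that bring proteins into the lumen, SEC11C, a catalytic subunit of signal peptidase, was at 146, 115, 155 and 190 CPM, with log2 ratios of -0.34 (SE 0.026) in sensitive and -0.29 (SE 0.015) in resistant cells for coculture over monoculture. SPCS1, a further signal peptidase subunit, was at 312, 251, 259 and 310 CPM, so that both cocultured populations were again below both monocultures. SPCS2 (962, 999, 1133 and 1048 CPM) and SPCS3 (63.2, 61.2, 74.0 and 74.8 CPM) did not share that order. SSR1 of the TRAP complex was at 90.3, 104, 119 and 94.9 CPM, higher in coculture in both lineages. SEC61A1 (54.1 to 58.6 CPM) and SEC61B (454 to 551 CPM) are parts of the channel itself, and their log2 ratios in sensitive cells were -0.07 and -0.20.

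The sensors were lower in resistant than in sensitive monoculture. ATF6 was at 40.8, 35.1, 36.6 and 31.9 CPM, ERN1 at 6.26, 5.26, 3.93 and 3.87 CPM and EIF2AK3 at 3.77, 2.82, 3.15 and 2.42 CPM, so that all 3 were highest in sensitive monoculture, with ERN1 and EIF2AK3 under the level tested. XBP1 was at 626, 674, 677 and 705 CPM in total. Counts per gene hold no measure of the XBP1 splicing by which IRE1 acts, nor of phosphorylation or cleavage of the sensors.

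In resistant cells, coculture over monoculture, 2 of 30 genes tested in G1 cells were past the fold upward and 0 downward (all 6523 genes tested, 9.92% and 2.39%). They were DNAJB9 and, at 0.32, SSR1. The median log2 ratio was -0.09, beside 0.02 over all genes. In all cells only DNAJB9 was past the fold upward and 0 genes were downward, of 31 (all genes, 9.25% and 2.61%). The largest ratios below 0 in G1 cells were those of EDEM2 (-0.31), SEC11C (-0.29) and MANF and SPCS1 (-0.26 each).

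**Figure D3:**
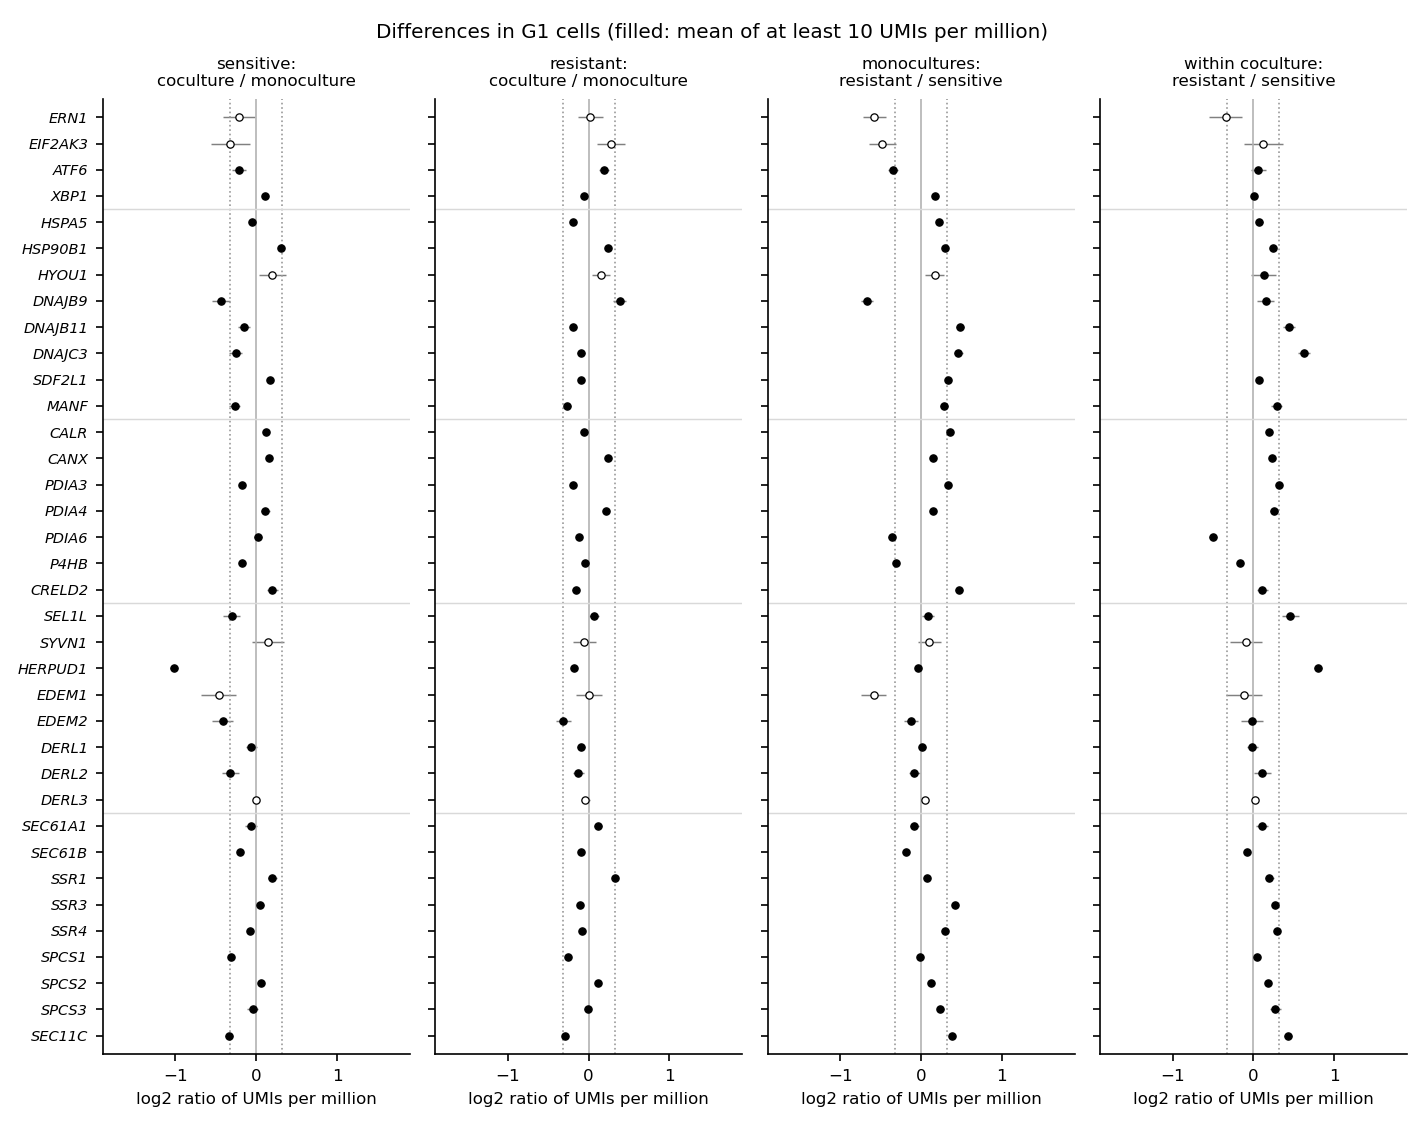
Log2 ratio in G1 cells with its 95% counting interval for each gene in the 4 comparisons; filled points averaged 10 CPM or more and dotted lines mark a ratio of 0.32 either way. HERPUD1 stands at -1.01 in the first panel and at 0.80 in the last, and DNAJB9 at -0.44 and 0.38 in the first and second.

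The monocultures differed more. For resistant over sensitive cells in G1, 8 of 30 genes were past the fold upward and 3 downward, where 12.6% of all 6691 genes tested were past it upward and 28.3% downward. In all cells the counts were 7 and 2 (all genes, 16.3% and 25.7%), which became 12 and 1 with TMM scaling (all genes, 23.5% and 18.7%), and 2 and 3 in cells with a mitochondrial share below 15% (all genes, 11.4% and 26.1%). TMM scaling moved the median of all genes up by 0.11, and the members' median stayed 0.22 above that of all genes under both scalings. The median log2 ratio of the genes was 0.15 and that of all genes -0.11 in G1 cells. The 8 were DNAJB11, DNAJC3, SDF2L1, CALR, PDIA3, CRELD2, SSR3 and SEC11C, and the 3 were DNAJB9, PDIA6 and ATF6.

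By role, DNAJB11 (ERdj3), a luminal J-domain cochaperone, was at 59.1, 52.9, 72.3 and 82.7 CPM in G1 cells, and both resistant populations were above both sensitive ones. DNAJC3 (p58IPK), a cochaperone that also restrains PERK, followed the same order of lineages at 52.6, 43.9, 68.2 and 72.8 CPM. CRELD2, a secreted disulfide isomerase of the response, was at 53.8, 62.0 and 67.0 CPM in the first 3 populations, and its log2 ratio between the monocultures was 0.47. SSR3 of the TRAP complex was at 176, 182, 220 and 237 CPM, and SSR4 at 778, 737, 899 and 953 CPM.

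PDIA6 (chr2:10923517-10978103, minus strand), an isomerase that also acts on IRE1, went the other way, with 121, 122, 85.8 and 93.4 CPM in G1 cells. Both resistant populations were thus below both sensitive ones, with a log2 ratio of -0.37 (SE 0.019) between the monocultures and -0.50 (SE 0.027) within the coculture library. Of the 7 genes with an ERSE, PDIA6 was the 1 with a ratio below 0 between the monocultures in G1 cells. The other 6 were CANX (0.14), XBP1 (0.17), HSPA5 (0.22), HSP90B1 (0.30), CALR (0.36) and CRELD2 (0.47). Of these, HSPA5 was below 0 in cells with a mitochondrial share below 15%, and HSP90B1 and CANX in G2/M cells. CANX, XBP1, HSPA5 and HSP90B1 were under the fold. The median over all 30 genes tested was 0.15, so ratios above 0 were common in the list as a whole. A link of direction to the element was not tested.

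Sensitive monoculture cells had the highest mitochondrial share, so ratios were also taken within bins of that share. The bins held cells of all phases, so phase and mitochondrial share were not separated in them. Among cells with a mitochondrial share below 15%, of which sensitive monoculture had 461, the median log2 ratio of the genes between the monocultures was 0.03, beside 0.15 in all cells, and that of all genes -0.10. In those cells HSPA5 had a ratio of -0.08, beside 0.19 in all cells, and HSP90B1 of 0.04, beside 0.26. In cells with a share of 20% to 25% the ratios were 0.36 for HSPA5 and 0.34 for HSP90B1. The direction for HSPA5 between the monocultures was thus not the same in the lowest bin as in all cells.

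The same bins left HERPUD1 lower in cocultured than in monocultured sensitive cells. Its log2 ratio was -1.07 below 15%, -1.16 at 15% to 20%, -0.98 at 20% to 25% and -0.78 at 25% to 30%. For DNAJB9 in sensitive cells the ratios were -0.62, -0.44, -0.30 and -0.17 (SE 0.10), the last with a 95% counting interval that holds 0. In resistant cells DNAJB9 was at 0.39 to 0.50 in the 4 bins. These bins were chosen after the data were seen.

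**Figure D4:**
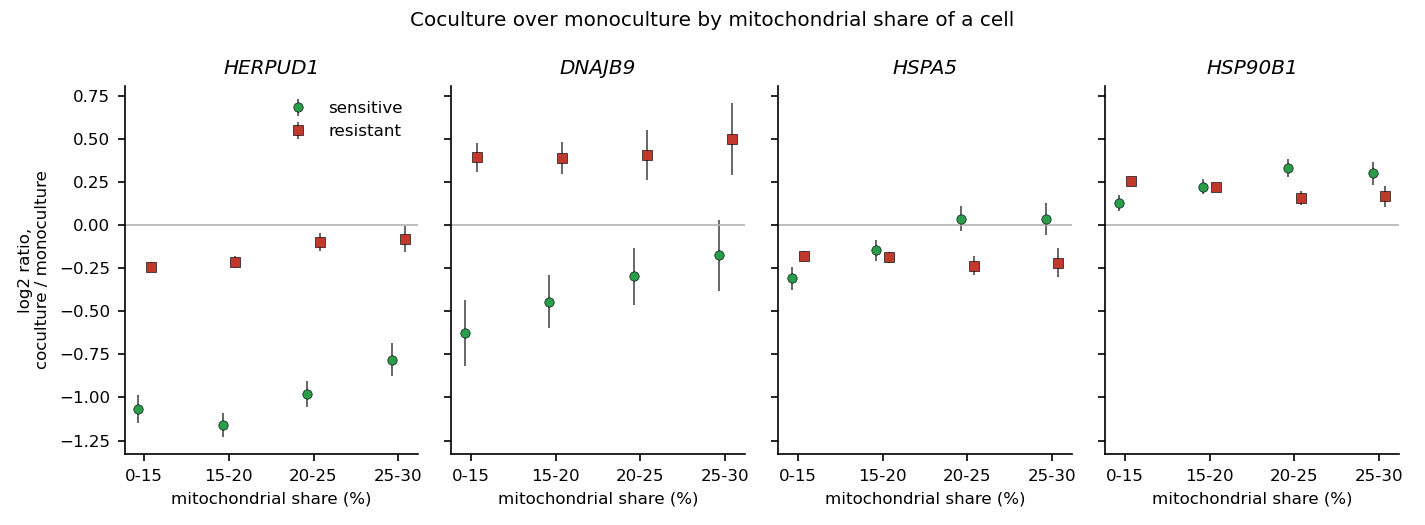
Log2 ratio of coculture over monoculture for 4 genes in sensitive (circles) and resistant (squares) cells, by the mitochondrial share of a cell's UMIs (percent), with 95% counting intervals. Cells of all phases are included. HERPUD1 in sensitive cells stays between -1.16 and -0.78, while DNAJB9 in sensitive cells runs from -0.62 to -0.17 and HSPA5 from -0.31 to 0.04.

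Within the coculture library, where both lineages shared handling and sequencing, 5 of 31 genes in G1 cells were past the fold upward in resistant over sensitive cells and 1 downward (all 6624 genes tested, 7.49% and 10.8%). The 5 were HERPUD1, DNAJC3, SEL1L, DNAJB11 and SEC11C, and the 1 was PDIA6. In all cells, MANF joined them to make 6 upward, with PDIA6 again downward (all genes, 7.21% and 9.72%). The median log2 ratio in G1 cells was 0.18, beside 0.00 over all genes. DNAJC3 had the second largest ratio, 0.62 (SE 0.039), after HERPUD1. DNAJB11 was at 0.44 and SEL1L at 0.46.

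Levels also varied with the annotated cell cycle phase, which the authors called from the same RNA. HERPUD1 was lower in S and in G2/M than in G1 cells of every population, with log2 ratios from -0.86 to -0.33. DNAJB9 (-0.46 to -0.14), SEL1L (-0.37 to -0.15), XBP1 (-0.51 to -0.11) and EDEM2 (-0.34 to -0.07) were lower in both phases of every population too. CALR (0.17 to 0.54), PDIA6 (0.18 to 0.56), SSR3 (0.15 to 0.52) and SPCS3 (0.18 to 0.50) were higher in all of them. DNAJB11, MANF, PDIA4, CRELD2, SPCS2, DERL1 and P4HB were above 0 in all of them too. SDF2L1 was highest in S cells, at 0.32 to 0.54 over G1. HSPA5 lay within -0.05 to 0.12. For most of these genes the widest ratios were those of sensitive monoculture, where S and G2/M held only 176 and 190 cells. In S over G1 cells 6 of 30, 2 of 30, 2 of 31 and 0 of 30 genes tested were past the fold upward. Of all genes tested, 17.6%, 13.9%, 12.3% and 13.2% were. In G2/M cells 9 of 30, 3 of 31, 1 of 31 and 1 of 30 were (all genes, 23.1%, 17.1%, 17.5% and 19.5%). Downward in S cells were 3, 4, 1 and 3 (all genes, 14.8%, 5.83%, 4.37% and 3.63%). In G2/M cells 4, 1, 1 and 2 were downward (all genes, 15.8%, 7.36%, 5.69% and 4.19%).

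The lower HERPUD1 of cocultured sensitive cells was seen in each phase. Its level in S cells was 137, 83.1, 137 and 160 CPM, and in G2/M cells 127, 82.5, 150 and 178 CPM. In both, cocultured sensitive cells were again the low population, with log2 ratios over sensitive monoculture of -0.72 and -0.61.

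**Figure D5:**
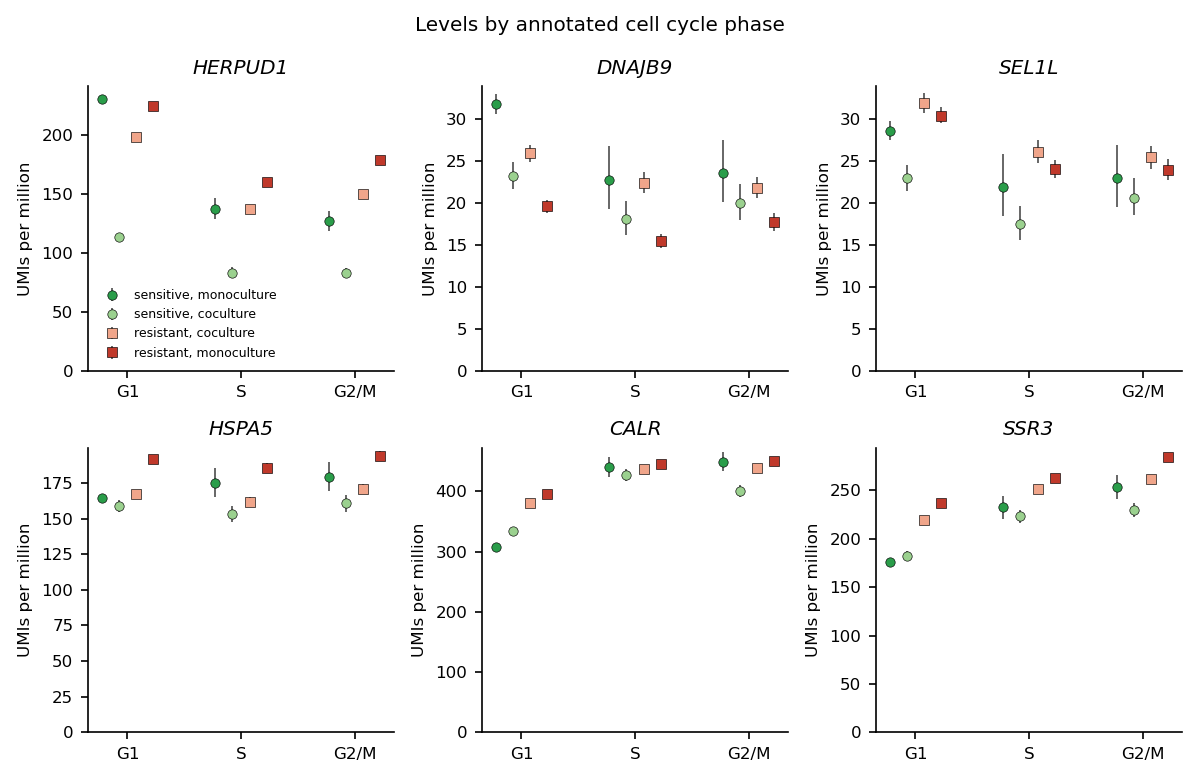
Level of 6 genes in CPM by annotated phase (G1, S, G2/M) in the 4 populations, with 95% Poisson intervals and axes from 0. HERPUD1, DNAJB9 and SEL1L are lower in S and G2/M than in G1 cells, CALR and SSR3 are higher, and cocultured sensitive cells have the lowest HERPUD1 in every phase.

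The members' summed share of a cell's UMIs, in G1 cells thinned to 5000 UMIs, had a median of 0.62%, 0.60%, 0.68% and 0.70%, and the middle 50% of cells ran from 0.52% to 0.74% in sensitive monoculture and from 0.60% to 0.82% in resistant monoculture. The populations overlapped widely. Across such cells the genes had a median Pearson r with HSPA5 of 0.041 to 0.052 over the 15 or 16 genes of sufficient level, beside a median of -0.007 to 0.001 and a 95th percentile of 0.035 to 0.052 over all genes of that level. The highest r of a member was 0.091 to 0.159 and the lowest -0.068 to -0.012. At 5000 UMIs the members' median was below the 95th percentile in sensitive monoculture (0.0472 beside 0.0507) and sensitive coculture (0.0522 beside 0.0525). The members' median was above that percentile in both resistant populations. SPCS1 had a negative r in every population at both 5000 and 10000 UMIs, and HERPUD1 in both resistant populations. Thinned to 10000 UMIs a cell, the median over 23 or 24 genes was 0.048 to 0.065 and the highest r 0.150 to 0.181. The median in resistant monoculture was then 0.063 in place of 0.041. At that depth all genes had a median of -0.002 to 0.005 and a 95th percentile of 0.045 to 0.065. In sensitive coculture the genes' median was 0.048, below that percentile of 0.065. In sensitive monoculture the 10 genes most like HSPA5 were HSP90B1 (r = 0.136), PPIB, CALR, S100A14, SPCS2, HLA-B, NUCB2, SQSTM1, TMED9 and RPL23A (r = 0.078). In resistant monoculture they were PPIB (r = 0.098), PDIA3, TFF3, P4HB, TFF1, MUC1, NUCB2, MGP, CANX and HM13 (r = 0.070). These cells share a library, and r of this size in sparse counts is given as a description.

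Of the neighbouring pathways, the arm of PERK (ATF4, its targets and its phosphatase subunits) had 3 of 7 tested genes past the fold downward and 0 upward in cocultured over monocultured sensitive G1 cells, and 3 of 7 downward between the monocultures, where the shares of all genes downward were 19.4% and 28.3%. CEBPB, a stress-responsive transcription factor, was at 34.1 CPM in sensitive monoculture and 20.3 CPM in sensitive coculture. PPP1R15B, a subunit of the eIF2α phosphatase, was at 26.2 CPM in sensitive and 14.5 CPM in resistant monoculture. In resistant cells, coculture over monoculture, CEBPB was the lowest, at -0.38, and DDIT3 (CHOP) the highest, at 0.31. ASNS, asparagine synthetase, was the highest of the list in sensitive cells at 0.03 and between the monocultures at 0.21.

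In G1 cells other regulators of the response and genes of luminal calcium had 7 of 13 tested genes past the fold downward and 0 upward in cocultured sensitive cells. Between the monocultures 6 were downward and 3 upward of 14. Of all genes, 19.4% were downward and 8.87% upward in the former comparison, and 28.3% and 12.6% in the latter. In all sensitive cells 6 of 14 were downward and 0 upward (all genes, 19.5% and 12.8%). ITPR1, the calcium release channel of the endoplasmic reticulum, was at 21.1 CPM in sensitive monoculture, 8.68 CPM in sensitive coculture and 6.84 CPM in resistant monoculture, log2 ratios of -1.19 (SE 0.079) and -1.49 (SE 0.054). CREB3L1, a membrane-bound transcription factor related to ATF6, was at 14.1 CPM in sensitive and 34.0 CPM in resistant monoculture. Within coculture it was at 16.2 CPM in sensitive and 28.4 CPM in resistant cells. Lowest within coculture was TMBIM6, at -0.39, and lowest and highest in resistant cells were CREB3 (-0.26) and CREB3L2 (0.21).

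Genes of N-glycosylation had 1 of 16 past the fold upward and 0 downward in cocultured sensitive cells, against 8.87% and 19.4% of all genes. It was KRTCAP2, a subunit of the oligosaccharyltransferase, at 219 CPM in sensitive monoculture, 365 CPM in sensitive coculture and 415 CPM in resistant monoculture, while OST4 of the same enzyme was at 466 CPM in sensitive and 297 CPM in resistant monoculture. Among the remaining oxidoreductases 2 of 9 were downward and 0 upward in cocultured sensitive cells, a share downward near the 19.4% of all genes, with ERP44, which retains client proteins, the lowest at -0.60. PRDX4, a luminal peroxiredoxin, was the lowest in resistant cells at -0.48. Among other translocation and targeting genes 2 of 14 were upward and 1 downward in cocultured sensitive cells, against the same 8.87% and 19.4%. SEC61G, the small channel subunit, was at 0.47 in sensitive and 0.56 in resistant cells. These 2 ratios share the coculture library.

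Other degradation genes had 1 of 17 downward in cocultured sensitive G1 cells, MAN1B1 at -0.37, fewer than the 19.4% of all genes. Of genes of exit from and return to the endoplasmic reticulum, 0 of 18 were past the fold in those G1 cells. In all sensitive cells 1 of these 18 was upward and 0 downward. Among chaperones of the cytosol and mitochondria 2 of 17 were downward and 0 upward in G1 cells, again under the 19.4% and 8.87% of all genes. In all sensitive cells 3 of these 17 were upward and 2 downward (all genes, 12.8% and 19.5%). HSPA1A, the inducible cytosolic HSP70, was at 330 CPM in sensitive monoculture and 209 CPM in sensitive coculture, and HSPD1, the mitochondrial HSP60, at 369 and 459 CPM. HSPH1, an HSP110, was at 114 CPM in sensitive and 63.6 CPM in resistant monoculture.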

How the data were processed

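The authors aligned 10x 3' reads with Cell Ranger 3.0.2 on GRCh37 and deposited, for each barcode, UMI counts of genes that were not normalized. Their deposited annotation holds the population, phase, cluster and mitochondrial percent of each kept cell, all derived by the authors from the same RNA. In coculture a sensitive cell had at least 1 mVenus and no mCherry UMI, and a resistant cell the reverse. A further 13 annotation columns were not used. Barcodes outside the annotation were left out. No doublet caller was run here.

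Rows without a gene symbol (10241 rows, 0.523% to 0.591% of all UMIs) did not enter library sizes. UMIs were summed per population and expressed as CPM with exact Poisson intervals (95%), which cover counting error only. Ratios used a pseudocount of 1 CPM and standard errors by the delta method. Cell sums differed from the authors' totals by at most 6 UMIs. Because each condition had 1 library, no test was run.

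For thinning, 5000 UMIs were drawn from each cell, without putting any back, and correlations used log2(UMI + 1) of genes that averaged 0.5 UMIs or more. Ratios, intervals and correlations were tested on simulated data. TMM factors (edgeR 4.0.16, R 4.3.3) served for scaling. Python 3.11.15 with numpy 2.4.6 and scipy 1.17.1 was used for the rest. Positions of genes were read from GENCODE 44 in its lift to GRCh37, which is newer than the authors' annotation.

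Named are all 36 genes, the genes at either end of neighbouring lists in G1 cells (1 of them is not reported here), and the 10 genes most like HSPA5 in each monoculture. The genes and lists were chosen with earlier results of these data known. Alternatives covered pseudocounts, scaling, cell filters, mixed RNA, the genes tested and the fold, as well as leaving out the top 5% of cells by UMIs.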

Additional observations from a re-analysis of the deposited data

Results flagged for a closer look

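DNAJB9 was past a log2 ratio of 0.32 in opposite directions in the lineages under the same contrast. Its log2 ratio of coculture over monoculture was -0.51 in sensitive and 0.39 in resistant cells, and in G1 cells -0.44 and 0.38. Each lineage had 1 library per culture and both cocultured populations came from 1 library, so the difference was not tested. In sensitive cells the ratio was -0.32 in S and -0.22 in G2/M cells and -0.32 within deposited cluster 7, but 0.11 (SE 0.12) and 0.21 (SE 0.15) within clusters 3 and 4, whose 95% counting intervals hold 0. Clusters 3, 4 and 7 held fewer than 50 resistant monoculture cells each, so no resistant ratio was taken there.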

How the results depend on the processing

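Among ratios of genes past the fold, only that of DNAJB9 in sensitive cells changed direction, to 0.11 within cluster 3 and 0.21 within cluster 4 (clusters were run for HERPUD1 and DNAJB9, and were chosen after the data were seen). The median ratio moved beyond its counting limits as follows. In sensitive cells, coculture over monoculture (-0.09), it was -0.12 with the correction for resistant-cell RNA, -0.12 without mitochondrial genes in the total, -0.21 in cells with a mitochondrial share below 15% and 0.024 for genes of at least 50 CPM. In resistant cells (-0.08) it was -0.15 with TMM scaling, which moved the median of all genes by -0.07 and left the genes' median 0.09 below it under both scalings. Between the monocultures (0.15) it was 0.19 with 2 or more transgene UMIs, 0.26 with TMM scaling, 0.20 for genes of at least 50 CPM, 0.032 below 15% mitochondrial share and 0.077 without mitochondrial genes. Between the monocultures TMM scaling shifted the median of all genes by 0.11, from -0.07 to 0.04, and leaving out mitochondrial genes by -0.08, while the genes' median stayed 0.22 above it in all 3. The cause was not tested.

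The counts of genes past the fold moved by over 1.5 times as follows. Shares of all genes past the fold in the same direction are in parentheses. In sensitive cells, 0 upward (12.8%) became 1 with 2 or more transgene UMIs (15.2%) and 1 with means of per-cell CPM (12.7%). There, 7 downward (19.5%) became 4 in G1 cells (19.4%) and 3 with a pseudocount of 10 CPM (12.3%). That count was 3 for genes of at least 50 CPM (17%) and 1 at a fold of 1.5 (5.84%). In resistant cells, 1 upward (9.25%) became 2 in G1 cells (9.92%) and 2 with a pseudocount of 0.1 CPM (10.1%). That count was 0 with a pseudocount of 10 CPM (4.32%), for genes of at least 50 CPM (8.74%) and at a fold of 1.5 (0.829%). There, 0 downward became 3 with TMM scaling, where the share of all genes downward went from 2.61% to 7.69%. Between the monocultures, 7 upward (16.3%) became 12 with TMM scaling (23.5%), 2 below 15% mitochondrial share (11.4%) and 0 at a fold of 1.5 (6.64%). There, 2 downward (25.7%) became 1 with 2 or more transgene UMIs (24.1%), 1 with TMM scaling (18.7%) and 1 with a pseudocount of 10 CPM (18.5%). That count was 1 at a fold of 1.5 (12%) and 0 for genes of at least 50 CPM (18.5%). It was 4 without mitochondrial genes (32.7%) and 5 for genes of at least 50 UMIs (26.5%). Within coculture, 6 upward (7.21%) became 2 (1.69%) and 1 downward (9.72%) became 0 (2.48%) at a fold of 1.5. A higher fold or a stricter level leaves fewer genes by construction. HERPUD1 in sensitive cells ranged from -1.24 to -1.01 over the other scalings, pseudocounts, filters and the G1 subset, from -1.16 to -0.78 over mitochondrial bins, was -0.72 in S and -0.61 in G2/M cells, and ran from -0.66 to -0.22 within clusters. No paired analysis was possible because each condition had 1 library.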
